A study of Mus musculus with 6 samples.

Results

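The genes described here are 10 antioxidant enzyme genes of mouse platelets, chosen by symbol as the glutathione peroxidases Gpx1 and Gpx4, the peroxiredoxins Prdx1, Prdx2, Prdx3, Prdx5 and Prdx6, the superoxide dismutases Sod1 and Sod2, and catalase (Cat). All 10 had a row among the 14975 genes of the deposited expression table. RNA-seq libraries were made from blood platelets of female mice on the C57BL/6 background, 3 libraries labelled WT (control 1 to control 3) and 3 labelled AML (pre-AML 1 to pre-AML 3). According to the study's methods, cells positive for CD45 or Ter119 were depleted from the platelets, and cDNA was amplified by SMART-Seq2. Both groups were irradiated and transplanted. The control mice received normal bone marrow, and the pre-AML mice received leukemic cells that express MLL-AF9, an oncogenic fusion protein, and platelets were taken 1 week after transplantation as the study describes it. The leukemic cells came from blood stem and progenitor cells infected with a retrovirus carrying MLL-AF9 and GFP, passed through a first recipient and then given to sub-lethally irradiated mice, which keep blood-forming cells of their own. The labels state genotypes without a week. The design text of the data record describes 2 replicates per group with 3 to 4 mice pooled in a library, whereas the study's methods speak of 3 independent mice. The p-values below therefore measure the spread between these libraries, which may be partly technical.

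Superoxide, made by NADPH oxidases and by the respiratory chain, is turned into hydrogen peroxide by superoxide dismutases. Catalase, glutathione peroxidases and peroxiredoxins then reduce the peroxide, the peroxiredoxins with electrons from thioredoxin or glutathione and the glutathione peroxidases with glutathione. In platelets, hydrogen peroxide acts as a signal downstream of collagen receptors, and platelets, which have no nucleus, carry messenger RNA made earlier in the megakaryocyte.

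Levels were given as FPKM, the number of reads on a gene scaled by its exon length and by a size value of the library. The reads recovered from these values numbered between 11936105 and 17778880 per library, and the members had between 85 (Sod2) and 113446 (Prdx6) reads in a library. Across genes, the Spearman correlation of pre-AML 3 with the other libraries was between 0.842 and 0.880, and it stood apart from them, as their own pairs reached 0.962 to 0.973. All 12 platelet markers averaged 1 FPKM or more in controls, led by Pf4 and Ppbp. Their summed level was between 90548 and 114502 FPKM in controls and between 61970 and 92969 FPKM in pre-AML libraries. Most of this sum was Pf4 (means of 66487 and 52520 FPKM) and Ppbp (17958 and 13896 FPKM), both with lower means in pre-AML libraries. The means of Itga2b, Gp9, Gp5 and Tubb1 were higher in pre-AML libraries, and those of Itgb3, Gp1ba, Gp1bb, Gp6, Clec1b and Treml1 were lower. The 10 monocyte and macrophage markers that were low in controls summed to between 0.467 and 1.44 FPKM there, and to 5.47, 6.86 and 224 FPKM in pre-AML 1 to pre-AML 3, while Lyz2 and Fcer1g were high in every library. Of these sums Tyrobp alone held 4.85, 4.37 and 153 FPKM in pre-AML 1 to pre-AML 3, with at most 0.533 FPKM in controls. Among the 12 listed genes 4 lay above every control in all pre-AML libraries, beside 6.14% of the 4412 genes tested below. Ccr2, among these 4, was too low to be tested. In pre-AML 3 taken alone, 11 of the 12 lay above every control. The share of all genes that did so in pre-AML 3 was not computed, so the 11 are a description only. For B cells, whose list was led by Cd74 and Cd37, the 7 low markers summed to between 0.311 and 0.977 FPKM in controls and to 0.363, 4.57 and 59.6 FPKM in pre-AML 1 to pre-AML 3. Cd74 was between 0.751 and 1.48 FPKM in controls and at 0.671, 15.2 and 168 FPKM in pre-AML 1 to pre-AML 3. Cd37 had 21.1, 13.8 and 10.2 FPKM in controls and 11.1, 11.3 and 20.0 FPKM in pre-AML libraries, with overlapping groups. For T and NK cells, whose list was led by Nkg7 and Gzma, the 10 low markers summed to between 0.205 and 0.823 FPKM in controls and to 13.0, 6.64 and 22.8 FPKM in pre-AML libraries. Nkg7, at 22.9, 28.2 and 18.9 FPKM in controls, had 25.2, 27.9 and 22.6 FPKM in pre-AML libraries, with overlapping groups. The whole list of 11 genes summed to between 19.1 and 29.0 FPKM in controls and between 34.6 and 45.4 FPKM in pre-AML libraries. The erythroid list, led by Hba-a1 and Hbb-bt with 9 of 12 genes in the table, had sums between 2353 and 2655 FPKM in controls and between 2379 and 2993 FPKM in pre-AML libraries, and the 10 neutrophil markers, led by S100a8 and Mmp8, summed to between 3.19 and 3.66 FPKM and to between 2.10 and 4.82 FPKM. At 0 in every control were Ccr2, Cd14, Pax5, Cd3g, Cd2, Prf1, Ly6g, Retnlg and Elane. In such bulk samples, fewer cells of a type and less RNA per cell cannot be told apart.

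Groups were compared on log2(FPKM + 1) with limma-trend, a linear model that shares its estimate of spread across genes, for the 4412 genes whose mean over the libraries reached 1 FPKM, and p-values were adjusted by the Benjamini-Hochberg method over these genes. A fold change is pre-AML over control and is compressed for low levels by the added 1. Of the 10 antioxidant enzyme genes 9 were tested, Sod2 lying under the minimum, and 0 had an adjusted p under 0.05 (0.0227% of all tested genes did, which was the single gene Gzma, a protease of cytotoxic lymphocytes). Before adjustment, 1 of the 9 was under 0.05 and lower (Prdx1) and 0 were under 0.05 and higher, beside 6.53% and 2.56% of all tested genes (9.09% in either direction), and limma-voom on the recovered reads also called 0 of the 9 after adjustment and 1 before it. The median log2 fold change was -0.054 over the 9 genes and -0.055 over all 4412 genes, with 3 of the 9 above 0 and 6 below.

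**Figure D1:**
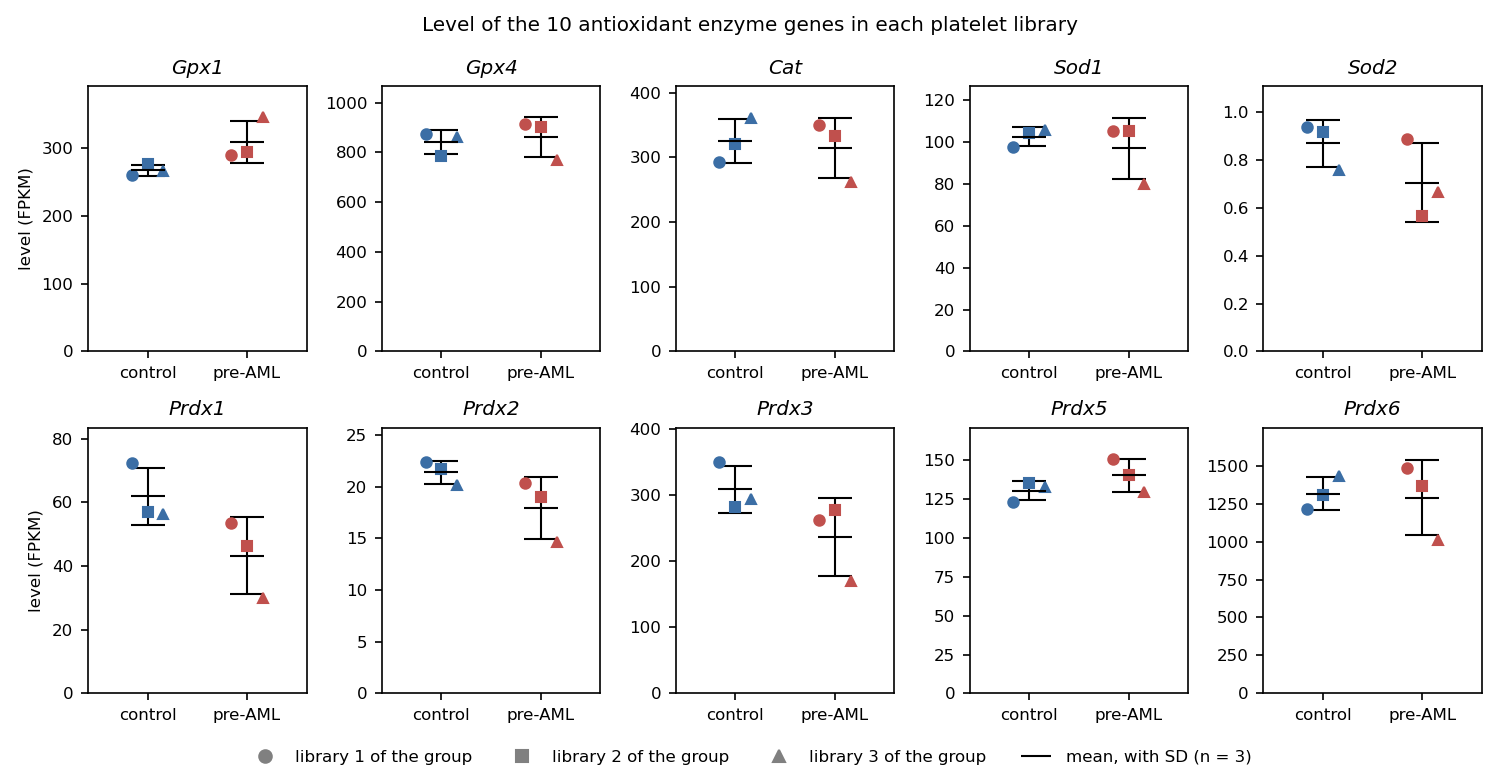
Level in FPKM (vertical axes, each starting at 0) of the 10 genes in 3 control (blue) and 3 pre-AML (red) platelet libraries, 1 panel per gene, with the group mean and SD as bars. Prdx6 lay between 1012 and 1486 FPKM, Sod2 was under 1 FPKM everywhere, and the triangle of pre-AML 3 was the lowest point for 7 of the 10 genes.

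The order of the levels in controls was Prdx6, Gpx4, Cat, Prdx3, Gpx1, Prdx5, Sod1, Prdx1, Prdx2 and Sod2, from a mean of 1316 FPKM down to 0.870 FPKM. Among neighbours in that order, the 3 control values overlapped only for Cat and Prdx3. In pre-AML libraries the order of the means was the same except that Gpx1 (309.9 FPKM) stood above Prdx3 (237 FPKM), and there the values of Cat and Gpx1 overlapped. Within a library, Prdx6 ranked between 43 and 51 and Gpx4 between 60 and 73 among the 14975 genes, and Sod2 between 4337 and 5937. These orders compare levels per exon length, and the lengths used here to recover reads ranged from 1441 bases for Gpx1 to 10008 bases for Sod2, so a gene whose platelet transcript is shorter than its annotated exons has a level that is too low.

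Gpx1 and Gpx4 are selenoproteins, in which a TGA codon inside the reading frame is read as selenocysteine, the residue that reacts with the peroxide. The codons are shown because they set these 2 genes apart from the peroxiredoxins, which use a cysteine, and because the selenoproteins Selenow and Selenof described further on share the feature. The transcript sequences below are from GENCODE M21 on GRCm38, 5′ to 3′ on the strand of the gene, with the selenocysteine codon in capitals, at chr9:108339451-108339453 (+), chr10:80054737-80054739 (+), chr7:15920464-15920466 (-) and chr3:144590645-144590647 (+).
Gpx1: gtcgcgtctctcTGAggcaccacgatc
Gpx4: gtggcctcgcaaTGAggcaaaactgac
Selenow: tattgtggagctTGAggctataagccc
Selenof: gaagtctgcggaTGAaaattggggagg

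Gpx1, on chr9:108338903-108340343 (GRCm38, + strand), encodes the cytosolic and mitochondrial glutathione peroxidase of hydrogen peroxide. Its level was 260.3, 276 and 266 FPKM in control 1 to control 3 and 289, 295 and 346 FPKM in pre-AML 1 to pre-AML 3. All 3 pre-AML libraries lay above all 3 controls, and pre-AML 3 was the highest. Of the 9 tested members it was the only one placed so on the deposited scale (6.14% of all tested genes were higher without overlap, and 18.9% were apart in either direction). The means were 267 ± 8.15 and 309.9 ± 31.0 FPKM (SD, n = 3), and the log2 fold change of 0.21 (standard error 0.13, 95% interval -0.090 to 0.51) did not pass the test (adjusted p = 0.555, limma-trend with Benjamini-Hochberg adjustment). Without pre-AML 3, the library with the highest macrophage and B cell markers, the log2 fold change was 0.13.

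Gpx4, on chr10:80047166-80056439 (+ strand), encodes the glutathione peroxidase that reduces lipid peroxides in membranes and holds back ferroptosis. It was read at 873, 785 and 864 FPKM in controls and at 915, 904 and 769.7 FPKM in pre-AML libraries. Pre-AML 1 and pre-AML 2 were the highest and pre-AML 3 the lowest of the 6, so the groups overlapped. Its log2 fold change was 0.035 (standard error 0.13, 95% interval -0.26 to 0.33, adjusted p = 0.928, limma-trend with Benjamini-Hochberg adjustment), from means of 840.5 ± 48.7 and 863 ± 81.0 FPKM (SD, n = 3). A processed copy, Gpx4-ps2, is annotated, and how reads shared with it were counted is not given in the sources used here.

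Cat, on chr2:103453849-103485160 (- strand), encodes catalase, the peroxisomal enzyme that splits hydrogen peroxide without a thiol donor. Its levels were 293, 321 and 361 FPKM in controls and 349, 333 and 261 FPKM in pre-AML libraries. Pre-AML 1 and pre-AML 2 lay inside the range of the controls and pre-AML 3 below it. The log2 fold change was -0.054 (standard error 0.16, 95% interval -0.42 to 0.31, adjusted p = 0.901, limma-trend with Benjamini-Hochberg adjustment), with means of 325 ± 34.4 and 314 ± 46.8 FPKM (SD, n = 3).

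Sod1, on chr16:90220754-90226329 (+ strand), encodes the copper and zinc superoxide dismutase of the cytosol. It was measured at 97.5, 104 and 106 FPKM in controls and at 106, 106 and 80.2 FPKM in pre-AML libraries. The 5 libraries other than pre-AML 3 spanned a narrow range, with pre-AML 3 below all of them. The means of 103 ± 4.50 and 97.1 ± 14.6 FPKM (SD, n = 3) gave a log2 fold change of -0.089 (standard error 0.15, 95% interval -0.43 to 0.26, adjusted p = 0.819, limma-trend with Benjamini-Hochberg adjustment). An intron of Scaf4 lies across Sod1 on the other strand.

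Sod2, on chr17:13006846-13040063 (+ strand), encodes the manganese superoxide dismutase of the mitochondrial matrix. Its levels were far lower, at 0.939, 0.915 and 0.757 FPKM in controls and 0.887, 0.566 and 0.665 FPKM in pre-AML libraries, from between 85 and 155 reads. Pre-AML 1 lay within the range of the controls and the other pre-AML libraries below it. With no minimum level the log2 fold change was -0.14 (adjusted p = 0.748, limma-trend with Benjamini-Hochberg adjustment), and the means were 0.870 ± 0.0992 and 0.706 ± 0.164 FPKM (SD, n = 3).

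Among the peroxiredoxins, Prdx1 and Prdx2 are the typical 2-cysteine enzymes of the cytosol and Prdx3 is the typical 2-cysteine enzyme of mitochondria. Prdx1, on chr4:116685544-116700822 (+ strand), had 72.3, 57.1 and 56.4 FPKM in controls and 53.7, 46.2 and 30.02 FPKM in pre-AML libraries. All pre-AML values lay under all control values, with control 1 the highest and pre-AML 3 the lowest. Prdx1 and Prdx3 were 2 members of the 9 with this pattern, beside 12.8% of all tested genes. The means were 61.9 ± 9.01 and 43.3 ± 12.1 FPKM (SD, n = 3). Its log2 fold change was -0.54 (standard error 0.22, 95% interval -1.04 to -0.030), with an adjusted p of 0.522 (limma-trend with Benjamini-Hochberg adjustment) and 0.0402 before adjustment. Without pre-AML 3 the log2 fold change was -0.30, with no p under 0.05.

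Prdx2, on chr8:84969587-84974834 (+ strand), had 22.4, 21.7 and 20.2 FPKM in controls and 20.3, 19.0 and 14.6 FPKM in pre-AML libraries. Pre-AML 1 lay just above the lowest control, which is the one point of overlap. From means of 21.4 ± 1.11 and 18.0 ± 2.99 FPKM (SD, n = 3), the log2 fold change was -0.25 (standard error 0.15, 95% interval -0.61 to 0.10, adjusted p = 0.552, limma-trend with Benjamini-Hochberg adjustment). Without pre-AML 3 it was -0.12, and with each library at the same FPKM sum -0.090. Exons of Junb and Rnaseh2a overlap Prdx2 on the opposite strand, and without knowledge of whether counting used strand their reads cannot be told apart. Junb was at 13.7 FPKM in pre-AML 3 and between 1.69 and 3.34 FPKM in controls.

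Prdx3, on chr19:60864051-60874556 (- strand), had 349.9, 282 and 294 FPKM in controls and 262, 278 and 169.6 FPKM in pre-AML libraries. Pre-AML 2 was within a few FPKM of control 2, and pre-AML 3 was well below every other library. The means were 309 ± 36.0 and 237 ± 58.6 FPKM (SD, n = 3), and the log2 fold change was -0.41 (standard error 0.20, 95% interval -0.88 to 0.058, adjusted p = 0.522, limma-trend with Benjamini-Hochberg adjustment, and 0.0784 before adjustment). Without pre-AML 3 it was -0.19.

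Prdx5, on chr19:6906697-6910106 (- strand), encodes the atypical 2-cysteine enzyme of mitochondria, peroxisomes and cytosol. Its level was 123, 135 and 133 FPKM in controls and 151, 141 and 129.6 FPKM in pre-AML libraries. Pre-AML 1 and pre-AML 2 were above every control and pre-AML 3 was among the controls, with a log2 fold change of 0.10 (standard error 0.13, 95% interval -0.19 to 0.40, adjusted p = 0.743, limma-trend with Benjamini-Hochberg adjustment). The means were 130.5 ± 6.30 and 140.4 ± 10.6 FPKM (SD, n = 3). An exon of Trmt112 overlaps Prdx5 on the opposite strand. Trmt112 was at 0.914, 1.02 and 3.09 FPKM in pre-AML 1 to pre-AML 3 and at most 0.807 FPKM in controls.

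Prdx6, on chr1:161240112-161251219 (- strand), encodes the 1-cysteine peroxiredoxin, which also reduces phospholipid peroxides and has phospholipase activity. It had the highest level of the 10 genes in every library, at 1212, 1305.5 and 1431 FPKM in controls and 1486, 1366 and 1012 FPKM in pre-AML libraries. The highest and the lowest value were both pre-AML libraries. The means of 1316 ± 109.6 and 1288 ± 246 FPKM (SD, n = 3) gave a log2 fold change of -0.047 (95% interval -0.43 to 0.34, adjusted p = 0.926, limma-trend with Benjamini-Hochberg adjustment). Its copy Prdx6b was between 0.118 and 0.271 FPKM in controls.

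The library pre-AML 3 set the spread of most of these genes, and its values depend on the scale. The size value behind its FPKM was 1.31 times its recovered reads, against 0.983 to 1.01 times in the other 5 libraries. The deposited scale gave every library the same median ratio, 1.01, to the geometric mean over 9167 genes above 0 everywhere. Scaling to recovered reads undoes this levelling. On the deposited scale 9 of the 10 genes were below the control mean in pre-AML 3, with a median log2 ratio of -0.37, whereas in pre-AML 1 and pre-AML 2 the medians were 0.073 and 0.037. When libraries were scaled to their recovered reads instead, the median in pre-AML 3 was 0.029, and pre-AML 3 was the lowest library for 3 of the 10 genes and the highest for 3. On that scale Gpx1, Gpx4 and Prdx5 were higher in all 3 pre-AML libraries than in all controls, and Prdx1, Prdx2 and Prdx3 were lower in all 3, beside 10.9% higher and 9.77% lower without overlap among the 4412 tested genes on the same scale.

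**Figure D2:**
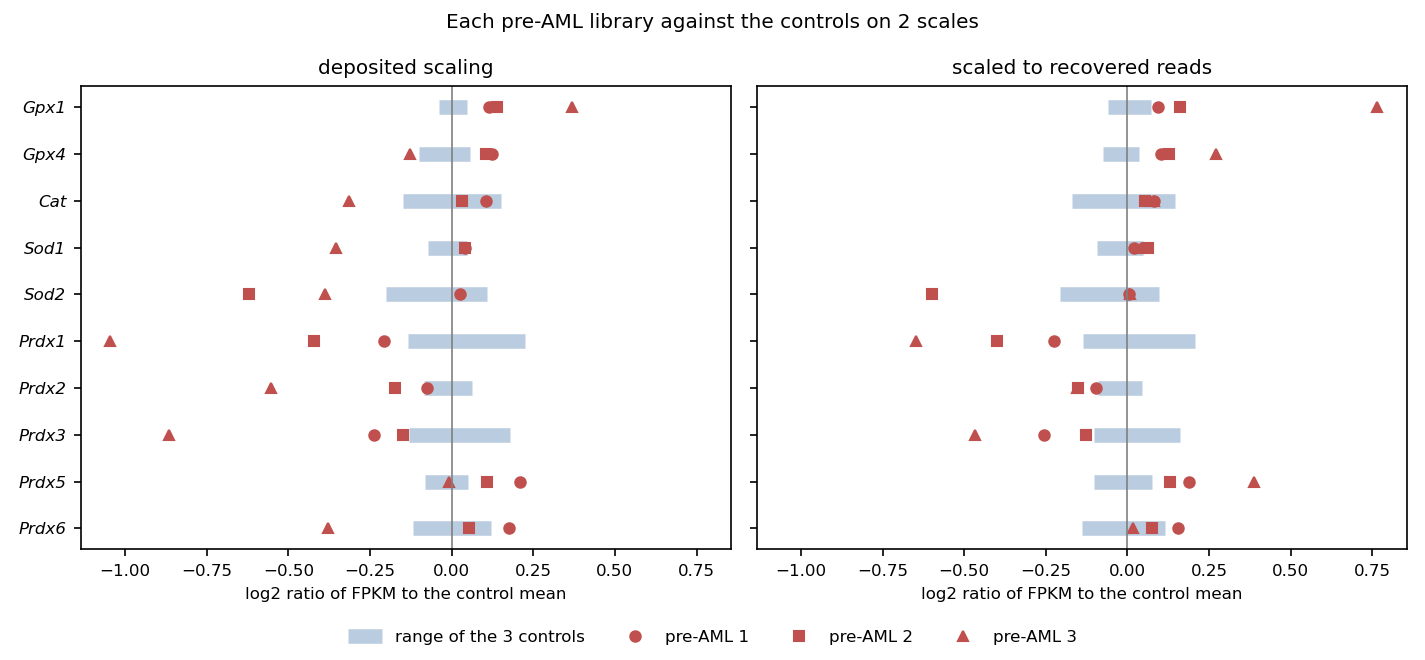
Log2 ratio (horizontal axes) of each pre-AML library to the control mean for the 10 genes, with FPKM as deposited (left) and with libraries scaled to their recovered reads (right), and the range of the 3 controls as a bar. The triangle of pre-AML 3 moved to the right for every gene, from a median of -0.37 to a median of 0.029, and stayed below the control range for Prdx1, Prdx2 and Prdx3.

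Scaling each library to the same FPKM sum placed the median of all genes at 0.084, a shift of more than 0.1 from the deposited scale, and the median of the 9 members at 0.12, with 6 above 0 and 3 below. The direction of Prdx6, Sod1 and Cat turned with this scaling, and those of Prdx1, Prdx2 and Prdx3 stayed below 0 in each of the 15 settings that were run. For Prdx1 the log2 fold change ranged from -0.71 to -0.30 over the settings, with an unadjusted p under 0.05 in 9 of 15 and an adjusted p between 0.312 and 0.784 (limma with Benjamini-Hochberg adjustment). For Prdx3 it ranged from -0.54 to -0.19, with 3 of 15 under 0.05 before adjustment. Prdx5 was also under 0.05 before adjustment in 3 of 15 settings, in the higher direction, at 0.27 with the same FPKM sum, 0.24 with quantile normalization and 0.24 with recovered reads, and at -0.078 with the trends taken out (adjusted p between 0.433 and 0.934 over the settings, limma with Benjamini-Hochberg adjustment). Gpx1 was above 0 in 14 of 15 settings and at -0.0023 in the other, in which the trends of a library with length and GC content were taken out.

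**Figure D3:**
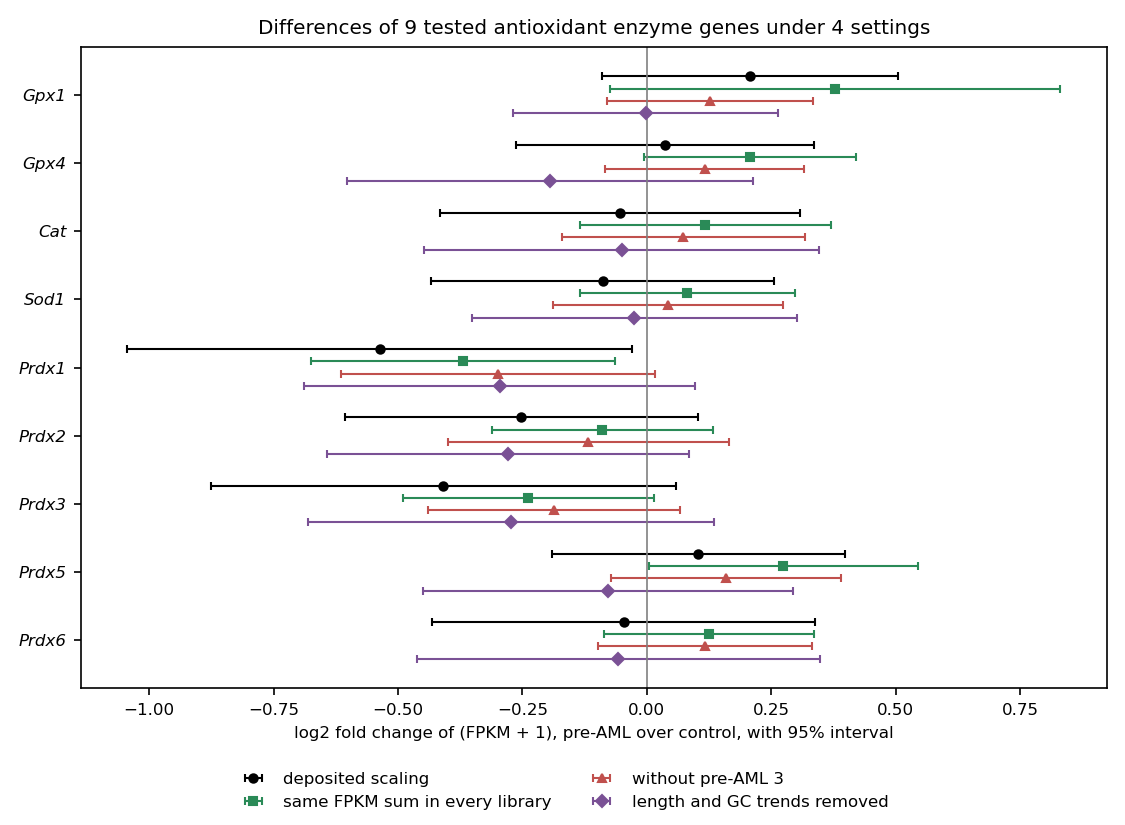
Log2 fold change of (FPKM + 1), pre-AML over control, with its 95% interval, for the 9 tested genes under 4 settings of limma-trend. The points of Prdx1, Prdx2 and Prdx3 were left of 0 under all 4, those of Gpx4, Prdx5, Prdx6, Sod1 and Cat stood on both sides, and Gpx1 was at -0.0023 with trends removed.

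The makeup of the group does not depend on the scale of a library, and it was compared as each gene's share of the summed FPKM of the 10 genes. The sum itself was 0.610%, 0.631% and 0.685% of all FPKM in controls and 0.682%, 0.686% and 0.748% in pre-AML libraries (0.642 ± 0.0384% and 0.705 ± 0.0370%, SD, n = 3), so the lowest pre-AML library lay just under the highest control. Prdx6 and Gpx4 together made up most of it. Prdx6 held 39.0 ± 2.01% in controls and 38.7 ± 2.496% in pre-AML libraries, and Gpx4 held 24.9 ± 1.34% and 26.2 ± 1.10% (SD, n = 3). Neither share differed by more than the spread (exact two-sided permutation tests, p = 0.8 and p = 0.3).

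The shares of Prdx1, Prdx2 and Prdx3 were lower without overlap, and 0 shares were higher without overlap. When every one of the 4412 tested genes was divided by the summed FPKM of the 10 genes in the same way, 16.1% were lower and 6.41% higher without overlap. Prdx1 held 2.19%, 1.73% and 1.598% in controls and 1.48%, 1.32% and 1.07% in pre-AML libraries. Prdx2 held 0.677%, 0.659% and 0.572% in controls and 0.560%, 0.544% and 0.519% in pre-AML libraries. Prdx3 held 10.6%, 8.59% and 8.33% in controls and 7.21%, 7.98% and 6.03% in pre-AML libraries. In each case the exact two-sided permutation p was 0.1, the smallest that 3 against 3 libraries allow, and 0.333 after Benjamini-Hochberg adjustment over the 10 shares. Gpx1 held 7.87%, 8.40% and 7.52% in controls and 7.97%, 8.45% and 12.3% in pre-AML libraries, with pre-AML 1 inside the range of the controls, pre-AML 2 just above it and pre-AML 3 well above it (exact permutation p = 0.2). Cat held 9.62 ± 0.693% and 9.48 ± 0.172% (SD, n = 3, exact permutation p = 0.8).

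**Figure D4:**
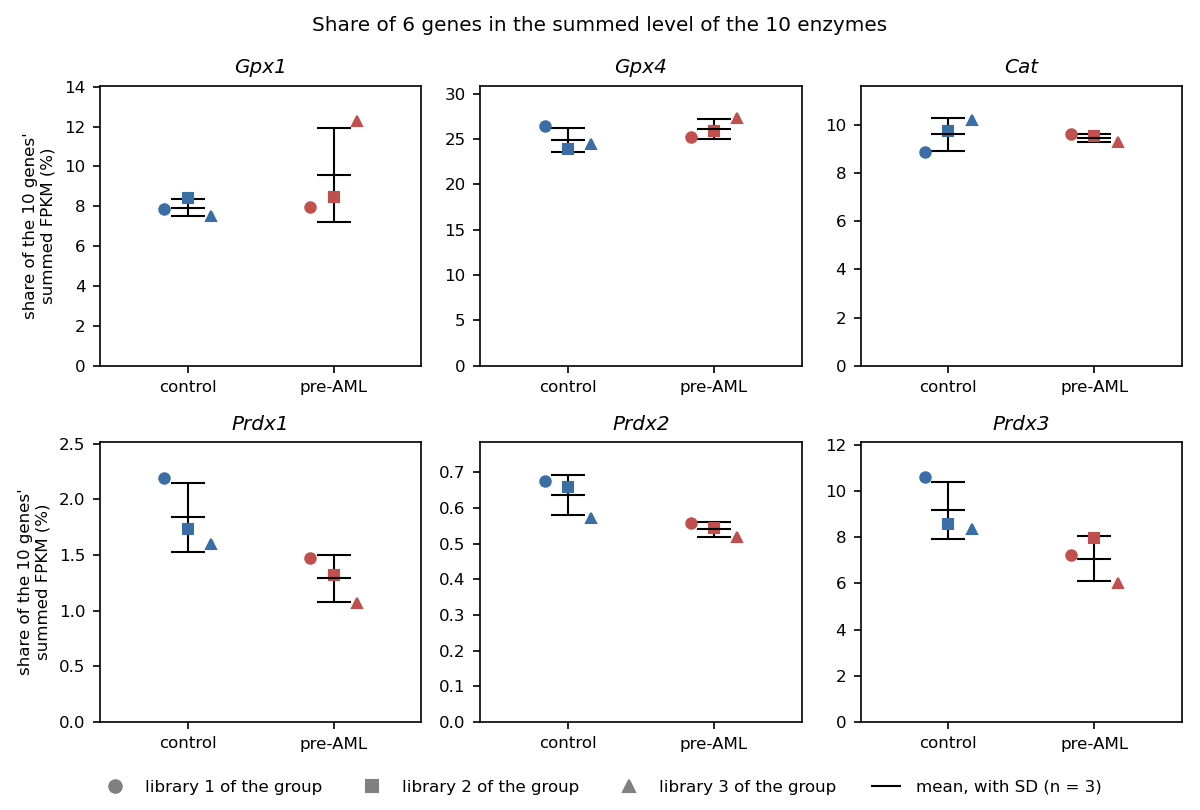
Share in percent (vertical axes, each starting at 0) of 6 genes in the summed FPKM of the 10 antioxidant enzyme genes, per control (blue) and pre-AML (red) library, with mean and SD. The points of Prdx1, Prdx2 and Prdx3 did not overlap between groups, and Gpx1 reached 12.3% in pre-AML 3.

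Ratios between pairs of members do not depend on the scale of a library either. The pairs given here were picked after their values were seen, so their ratios are a description with no test. Gpx1 over Prdx3 was 0.744, 0.979 and 0.903 in controls and 1.10, 1.06 and 2.04 in pre-AML libraries, so Prdx3 was the more abundant of both per length in each control and Gpx1 in each pre-AML library. Gpx1 over Gpx4 was 0.298, 0.352 and 0.308 in controls and 0.316, 0.326 and 0.449 in pre-AML libraries, with overlapping groups. Prdx2 over Prdx1 was 0.309, 0.380 and 0.358 in controls and 0.379, 0.411 and 0.486 in pre-AML libraries, where pre-AML 1 lay just under control 2. Cat over Prdx6 was 0.247 ± 0.00549 in controls and 0.246 ± 0.0116 in pre-AML libraries (SD, n = 3).

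The GC content of a member's exons moved with its log2 fold change. GC content was 58.3% for Gpx4, 56.5% for Gpx1 and 56.3% for Prdx5, the 3 tested genes above 0, and 45.5% for Prdx3 and 43.5% for Prdx1, the lowest of the 10. Across the 9 tested members, which share the same 6 libraries, Pearson's r was 0.88 and Spearman's rho 0.85, and across 4397 genes rho was 0.58. When the trends of each library with exon length and GC content were taken out by loess, r was 0.45 and rho 0.32 across the 9 members. All 9 were then below 0, with Prdx1 at -0.30, Prdx2 at -0.28, Prdx3 at -0.27, Gpx4 at -0.19, Prdx5 at -0.078 and Gpx1 at -0.0023, and 0 of the 9 had an unadjusted p under 0.05. Whether the GC content of these genes had a part in their differences was not tested beyond this removal.

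**Figure D5:**
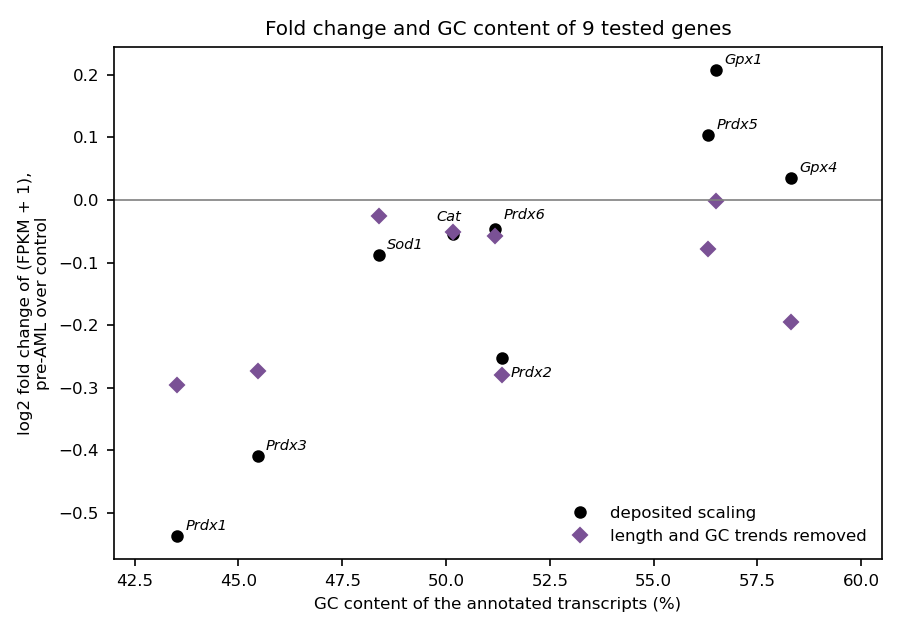
Log2 fold change of the 9 tested antioxidant enzyme genes (vertical axis) against the GC content of their exons in percent (horizontal axis), as deposited and with trends removed. On the deposited scale the points ran from Prdx1 at 43.5% and -0.54 to Gpx4 at 58.3% and 0.035 (Spearman's rho 0.85, n = 9), and with trends removed all points lay below 0.

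NRF2 (Nfe2l2) is a transcription factor that turns on many antioxidant genes, Prdx1 among them, through antioxidant response elements. The letters TGACNNNGC of such an element were searched on both strands of the 250 bases before the start in RefSeq promoters (GRCm38.p6), and were found in 2 of the 9 members with an entry (22.2%), against 11.5% of 27025 genes. The sites are shown as they bear on the list of NRF2 genes below. Each is given on the + strand with the match in capitals, read on the other strand, 133 bases before the start of Prdx1 (chr4:116685450-116685490) and 56 bases before that of Sod1 (chr16:90220690-90220730), and the capitals of Prdx1 also hold TGAGTCA, the letters of an AP-1 element.
Prdx1: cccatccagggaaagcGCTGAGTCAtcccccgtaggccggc
Sod1: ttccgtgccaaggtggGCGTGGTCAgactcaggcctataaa

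The genes around these enzymes were taken from 7 lists with 76 genes, of which 71 were in the table and 47 were tested. After adjustment 0 of the 47 were called, and before adjustment 1 was higher and 4 were lower at p under 0.05, beside 2.56% and 6.53% of all tested genes. The median log2 fold change was -5.6e-05, with 23 genes above 0 and 24 below. Groups did not overlap for 2 higher genes and 4 lower genes, beside 6.14% and 12.8% of all tested genes.

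Of the other family genes 3 were tested, all below 0. Of these, 2 had an unadjusted p under 0.05 (limma-trend), beside 6.53% of all tested genes in that direction. Without pre-AML 3, 1 of the 3 was above 0 and 2 were below. In that fit 1 was lower at an unadjusted p under 0.05 (limma-trend), beside 222 of all 4258 genes tested. Prdx4, the peroxiredoxin of the endoplasmic reticulum, had 42.4, 35.9 and 38.5 FPKM in controls and 32.9, 32.0 and 20.0 FPKM in pre-AML libraries. As with Prdx1 and Prdx3, all pre-AML values were under all control values, and the log2 fold change was -0.48 ± 0.20 (its standard error, and an adjusted p of 0.522 by limma-trend with Benjamini-Hochberg adjustment). Without pre-AML 3 it was -0.25, and with the same FPKM sum -0.31. Gpx8, a peroxidase of the endoplasmic reticulum, was at 4.23, 2.37 and 1.44 FPKM in controls and 0.574, 1.52 and 0.613 FPKM in pre-AML libraries, and Gpx3, the secreted enzyme, was below 3 FPKM throughout.

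In the thioredoxin system, which returns electrons to the peroxiredoxins, 0 of 7 tested genes had an unadjusted p under 0.05. Txn1, thioredoxin itself, had 117, 109 and 105 FPKM in controls and 109, 92.7 and 72.6 FPKM in pre-AML libraries, with pre-AML 1 inside the range of the controls. Srxn1, sulfiredoxin, which repairs overoxidised peroxiredoxins, had a log2 fold change of -0.13, or 0.039 without pre-AML 3, and overlapping groups. Txnip, an inhibitor of thioredoxin, was between 2.30 and 4.55 FPKM in controls and at 3.57, 5.31 and 10.2 FPKM in pre-AML libraries.

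The glutathione system held 10 tested genes, 5 above 0 and 5 below, with 1 of them under 0.05 before adjustment in limma-trend. Gclm, the regulatory subunit of the enzyme that makes the glutathione precursor, had 130.5, 133 and 147 FPKM in controls and 119, 113 and 86.7 FPKM in pre-AML libraries. Its groups did not overlap, with a log2 fold change of -0.37 ± 0.16 (its standard error, and an adjusted p of 0.522 by limma-trend with Benjamini-Hochberg adjustment). Without pre-AML 3 it was -0.23, and with the same FPKM sum -0.20. Gsto1, a glutathione transferase, was at -0.30 with overlapping groups, and at -0.15 without pre-AML 3.

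NADPH feeds both the thioredoxin and the glutathione reductases. Taldo1, a transaldolase of the pentose phosphate pathway with a mean of 1347 ± 63.1 FPKM in controls, had 1341 ± 193 FPKM in pre-AML libraries (SD, n = 3). G6pdx, glucose-6-phosphate dehydrogenase, had 41.6 ± 3.07 and 41.5 ± 1.76 FPKM (SD, n = 3). Idh2, the mitochondrial isocitrate dehydrogenase that makes NADPH, was at 1.58, 1.59 and 2.34 FPKM in controls and 1.31, 3.18 and 3.53 FPKM in pre-AML libraries, with overlapping groups. Of the 6 tested genes of this list, 3 were above 0 and 3 below, and 0 had an unadjusted p under 0.05.

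Of 7 tested genes of the NRF2 list, 1 had an unadjusted p under 0.05. This was Hmox1, heme oxygenase, at 1.22, 1.30 and 1.49 FPKM in controls and 2.53, 2.27 and 5.16 FPKM in pre-AML libraries. Every pre-AML library lay above every control, and the log2 fold change was 0.83 ± 0.24 (its standard error, and an adjusted p of 0.522 by limma-trend with Benjamini-Hochberg adjustment) and 0.54 without pre-AML 3. The summed low macrophage markers, mostly Tyrobp in pre-AML libraries, were also above the controls there, at 5.47, 6.86 and 224 FPKM. Both were highest in pre-AML 3, but from pre-AML 1 to pre-AML 2 the sum rose while Hmox1 fell. The part of such cells in the level of Hmox1 was not tested. Nfe2l2 itself had a log2 fold change of -0.13 and Nqo1, a quinone reductase under NRF2 control, of -0.050, both with overlapping groups.

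Of 7 tested selenoprotein genes, 1 had an unadjusted p under 0.05. Selenow, a small selenoprotein of the thioredoxin fold, was at 307, 306 and 288 FPKM in controls and 386, 371 and 308 FPKM in pre-AML libraries, so all pre-AML values were above all control values (log2 fold change 0.24, adjusted p = 0.536, limma-trend with Benjamini-Hochberg adjustment). Selenof, of the endoplasmic reticulum, was at 255, 201 and 204 FPKM in controls and 190.1, 167 and 109 FPKM in pre-AML libraries, with all pre-AML values below all control values (log2 fold change -0.53, adjusted p = 0.522, limma-trend with Benjamini-Hochberg adjustment). Without pre-AML 3 these were 0.34 for Selenow and -0.29 for Selenof. The selenocysteine genes printed above thus lay on both sides, with Gpx1 and Selenow above the controls and Selenof below them.

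Among the sources of superoxide, 6 of 7 tested genes were above 0 and 0 had an unadjusted p under 0.05. Cyba, the p22phox subunit of the NADPH oxidase, had 213, 161 and 167 FPKM in controls and 184, 200.3 and 218 FPKM in pre-AML libraries, with overlapping groups. Rac1, a GTPase that activates the oxidase, had 413 ± 25.9 and 369.7 ± 47.4 FPKM (SD, n = 3). Ncf4, the p40phox subunit of phagocytes, was at most 0.394 FPKM in 5 libraries and at 6.22 FPKM in pre-AML 3, the library with the highest macrophage markers.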

How the data were processed

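The authors mapped reads to mm10 with STAR, tested expression with DESeq2 and deposited 1 FPKM value per gene and library. The counting program, its use of strand and the annotation are not given in the sources used here. Sequencing depth followed from the deposited values: with union exon lengths of GENCODE M21 (14911 of 14975 genes matched), between 83.1% and 83.7% of values above 0 and under 1000 reads were whole reads within 0.05, so reads were recovered as estimates. Over 9167 genes above 0 everywhere, every library had a median ratio of 1.01 to the geometric mean.

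FPKM are not counts, so log2(FPKM + 1) was tested with limma-trend (limma 3.58.1, R 4.3.3) over genes averaging 1 FPKM or more, two-sided and with no covariate, and p-values adjusted by Benjamini-Hochberg were called under 0.05. Shares were compared by exact permutation tests (Python 3.11.15, scipy 1.17.1). Alternatives were the same FPKM sum, quantile normalization, a pseudocount of 0.1, no filter, the replicate block and leaving out each library, and, chosen after seeing the data, scaling to recovered reads, limma-voom on recovered reads (0 genes called) and taking out trends with exon length and GC content by loess.

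The members and lists were chosen with earlier results of these data known. Named were all members, the 2 tested genes of highest level and the 1 of smallest p in each other list, and the 2 highest genes of each marker list. Gzma, Tyrobp, Trmt112, Junb, Rnaseh2a, Scaf4, Prdx6b and the pairs of genes were chosen after their values were seen.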

Additional observations from a re-analysis of the deposited data

How the results depend on the processing

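Members called after adjustment numbered 0 in all 15 settings, as did genes of the other lists. The count of all genes called, 1 as reported, was 0 with the same FPKM sum, with no filter, with libraries scaled to recovered reads and with limma-voom, and ranged from 0 to 2 when 1 library was left out. Unadjusted p under 0.05 was reached by 113 genes higher and 288 lower of the 4412 tested as reported. With the same FPKM sum it was reached by 272 and 196 of 4467, and with recovered reads by 254 and 256 of 4518. With no filter it was reached by 497 and 373 of a far larger set, 14975 genes. Of the members' values under the alternatives, 106 kept direction and side of the threshold and 20 turned in direction, none of them called, and the cause was not tested. With trends with length and GC content removed these were Gpx1 (-0.0023), Gpx4 (-0.19) and Prdx5 (-0.078). With the same FPKM sum, quantile normalization and recovered reads they were Prdx6 (0.12, 0.032 and 0.086), Sod1 (0.081, 0.041 and 0.043) and Cat (0.12, 0.035 and 0.078). When 1 library was left out, Gpx4 ranged from -0.013 to 0.12, Prdx6 from -0.16 to 0.12, Sod1 from -0.15 to 0.042 and Cat from -0.14 to 0.073, the turned values being those of Gpx4 without control 2, pre-AML 1 or pre-AML 2 (-0.013, -0.0090 and -0.00028), of Prdx6 and Cat without control 3 (0.015 and 0.024) and of Prdx6, Sod1 and Cat without pre-AML 3. Libraries of the same number did not deviate together (correlations of -0.043, -0.12 and -0.17 across genes). The deviations were taken from means of 3 libraries and pre-AML 3 stood apart, so these correlations cannot exclude a pairing. With the replicate block 1 gene and 0 members were called, with 118 higher and 254 lower at unadjusted p under 0.05. Depth limits Sod2, with at most 155 reads.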
